A study of Mus musculus with 4 samples.

Results

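The transcriptome of mouse embryonic stem cells (ESCs) treated with the PRC2 inhibitor EED226 was compared with that of ESCs treated with its solvent, DMSO. The cells were wild-type ESCs of the mouse line R1, cultured for 48 h in ESC medium with LIF and either 10 µM EED226 or DMSO. Each condition had 1 polyadenylated RNA library, with 38863803 reads on genes for DMSO and 46789589 for EED226. Of 24421 gene entries in the deposited table, 12607 entered the comparison because they reached 1 TPM (a transcript level corrected for gene length and library size) in at least 1 of the 2 libraries and were not among the glycosylation genes on which the study centres. Another 156 genes at that level belong to the glycosylation list and were not described here. The series holds 2 more libraries, from R1 ESCs and from epiblast-like cells (EpiLCs) 72 h after induction, which were used only to show where the responding genes stand in those states. All values come from a single culture per condition. The spread between cultures is therefore unknown, no p-value was computed, and the intervals given with ratios cover counting error only.

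Polycomb repressive complex 2 (PRC2) places trimethylation on lysine 27 of histone H3 (H3K27me3) over the promoters of silent genes. Its subunit EED binds that same mark and through this contact stimulates the methyltransferase EZH2, so the complex can spread and maintain the mark. EED226 occupies the pocket of EED that recognises H3K27me3. In mouse ESCs the best known PRC2 targets are CpG-rich promoters of developmental regulators, above all genes of transcription factors that specify lineages the cells have not entered. PRC1, a second Polycomb complex, ubiquitinates histone H2A and compacts chromatin at many of the same promoters. Because EED226 acts on the EED protein, the level of *Eed* RNA, 258 TPM in the DMSO and 219.9 TPM in the EED226 library, does not check which culture received the compound, and no measurement of the histone mark is part of the files analysed.

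Markers of the labelled cell type were abundant in both libraries. *Pou5f1*, the central pluripotency factor, stood at 2142 TPM in the DMSO and 1873 TPM in the EED226 library, and *Sox2* at 397 and 400.4 TPM. R1 ESCs were maintained on mouse embryonic fibroblast feeders, and no source used here says whether the treated cells were. Of 18 fibroblast markers, 13 were measured at 1 TPM or more, and their summed level over all 18 was 242 TPM in the DMSO and 246 TPM in the EED226 library. The fibroblast genes *Dcn* and *Lum* were at 0.136 and 0.0702 TPM and at 0.0274 and 0.047 TPM. Others of the list stood well above 1 TPM in both libraries. *Acta2* was at 41.8 and 36.9 TPM, *Col1a1* at 21.1 and 20.0 TPM and *Col1a2* at 19.2 and 19.6 TPM. None of the 13 differed by 1.5-fold.

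More genes were higher than lower with EED226. A gene was called higher or lower when its TPM ratio of EED226 over DMSO, taken after adding 0.1 TPM to each value, was at least 1.5 or at most its inverse. By this size 658 of the 12607 genes (5.22%) were higher and 130 (1.03%) were lower. At 2-fold the numbers were 145 (1.15%) and 48 (0.381%), and at 4-fold 26 (0.206%) and 22 (0.175%). The median gene had a log2 ratio of 0.083, with quartiles of -0.041 and 0.25, so most of the transcriptome moved little. In RNA of a whole culture, a change in the share of cells that express a gene and a change in its RNA per cell cannot be told apart. When the ratios were centred on that median gene, 446 genes were higher and 182 lower. The counting interval of the ratio lay wholly above 1.5 for 140 genes (1.11%) and wholly below the inverse of 1.5 for 10 genes (0.0793%).

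**Figure D1:**
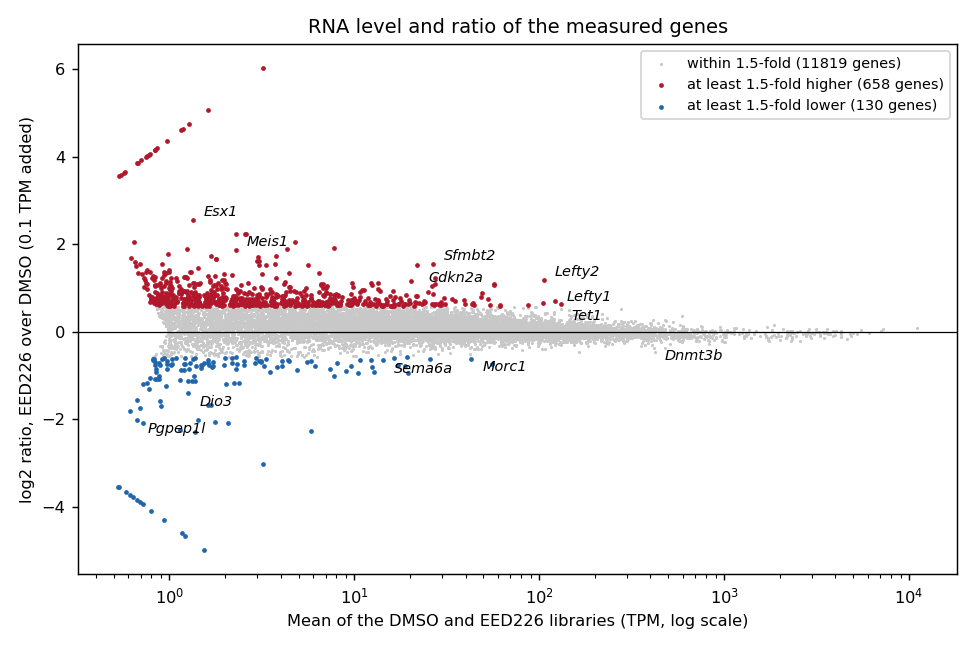
Log2 ratio of EED226 over DMSO (vertical axis, 0.1 TPM added) against the mean level of the 2 libraries (horizontal axis, TPM, log scale), 1 point per measured gene. The 658 higher genes are red, the 130 lower genes blue and the others grey, the red and blue points thin out above 100 TPM, and the points on the slanted lines at the upper and lower left belong mostly to the 33 short entries with no reads in 1 library.

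The genes that changed were mostly weakly expressed ones. Between 1 and 3 TPM, as the mean of the libraries, 251 of 1706 (14.7%) were higher and 54 lower. The share of higher genes was 8.22% at 3 to 10 TPM, 2.74% at 10 to 30 TPM and 0.565% at 30 to 100 TPM. At 100 TPM or more 4 of 1956 genes were higher and none was lower. Below a mean of 1 TPM the share was 41.5% of 246 genes, but there a gene could enter only by reaching 1 TPM in 1 library, which itself forces a difference. Counting error is also larger for weak genes, and the interval included 1 for 96 of the 658 higher and 64 of the 130 lower genes.

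Gene length moved with the ratio as well. The median log2 ratio was -0.019 in the shortest of 5 equal groups of genes by length (22 to 1520 bases) and 0.20 in the longest (4732 to 30001 bases). The share of lower genes went from 3.65% in the shortest group to 0.119% in the longest, while the share of higher genes was 7.19% and 7.33% in these groups and between 3.69% and 4.05% in the groups between them. After a running median along length was subtracted, 459 genes were higher and 145 lower, and 448 of the 658 and 128 of the 130 original calls were among them. Very short entries, mainly microRNA and small nucleolar RNA genes that a polyadenylated RNA library does not capture as mature molecules, made up 224 of the measured entries, with 68 higher and 42 lower. Among the 12383 entries of 200 bases or more, 590 were higher and 88 lower.

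**Figure D2:**
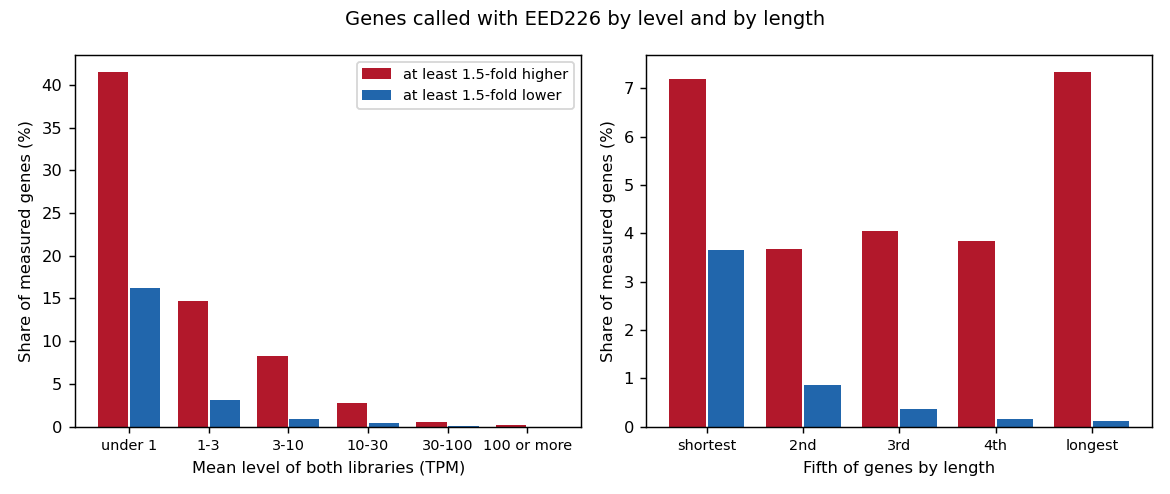
Share of measured genes called higher (red) or lower (blue) at 1.5-fold with EED226, by mean level of the 2 libraries in TPM (left) and by 5 equal groups of gene length (right). The share of higher genes falls from 14.7% at 1 to 3 TPM to 0.565% at 30 to 100 TPM, and the share of lower genes falls from 3.65% in the shortest group to 0.119% in the longest.

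Genes that went from near silence to a measurable level were few. In all, 46 genes were under 0.5 TPM with DMSO and at or above 1 TPM with EED226, of which 25 had a length of 200 bases or more. The reverse held for 26 genes, 12 of them of that length. A looser crossing, from under 1 TPM to 1 TPM or more, was made by 367 genes with EED226, and 134 genes crossed the same line downward.

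The highest genes by the lower bound of the interval were led by developmental regulators. *Esx1*, an X-linked homeobox gene of the placenta and the male germ line, was at 0.319 TPM with DMSO (9 reads) and 2.38 TPM with EED226 (78 reads), a ratio of 7.45 (95% counting interval 3.73 to 16.9). *Meis1*, a homeobox partner of HOX proteins, went from 0.924 to 3.66 TPM, a ratio of 3.96 (2.96 to 5.38). *Sfmbt2*, which encodes a Polycomb group protein and is expressed from the paternal allele in mouse trophoblast, was at 13.5 TPM in the DMSO and 39.8 TPM in the EED226 library, a ratio of 2.95 (2.81 to 3.10). These 3 genes had the highest lower bounds among genes with a promoter in the RefSeq table. Their promoters, and that of *Pgpep1l*, the lower gene with the smallest upper bound, are shown because CpG content is the sequence feature most closely tied to PRC2 occupancy. Each runs from 250 bases before to 50 bases after a transcript start in RefSeq annotation of GRCm38.p6, with CG dinucleotides in capitals.

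Esx1: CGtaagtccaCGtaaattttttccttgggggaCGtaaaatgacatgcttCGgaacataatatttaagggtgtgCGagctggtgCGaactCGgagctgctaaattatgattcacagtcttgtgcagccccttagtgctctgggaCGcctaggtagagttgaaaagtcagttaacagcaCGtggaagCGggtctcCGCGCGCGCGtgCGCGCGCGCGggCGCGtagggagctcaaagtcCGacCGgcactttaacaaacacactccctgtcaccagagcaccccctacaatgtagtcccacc
Meis1: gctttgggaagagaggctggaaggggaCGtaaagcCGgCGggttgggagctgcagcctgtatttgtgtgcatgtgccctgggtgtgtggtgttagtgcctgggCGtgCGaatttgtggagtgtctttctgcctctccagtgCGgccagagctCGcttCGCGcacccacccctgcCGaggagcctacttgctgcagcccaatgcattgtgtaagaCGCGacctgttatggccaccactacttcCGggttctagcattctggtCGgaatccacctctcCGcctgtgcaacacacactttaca
Sfmbt2: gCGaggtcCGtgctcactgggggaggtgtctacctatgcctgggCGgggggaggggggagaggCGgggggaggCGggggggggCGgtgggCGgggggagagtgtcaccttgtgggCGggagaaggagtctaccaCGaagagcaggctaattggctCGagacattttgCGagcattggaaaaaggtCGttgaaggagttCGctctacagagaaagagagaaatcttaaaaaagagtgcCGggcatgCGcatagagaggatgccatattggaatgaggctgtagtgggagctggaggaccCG
Pgpep1l: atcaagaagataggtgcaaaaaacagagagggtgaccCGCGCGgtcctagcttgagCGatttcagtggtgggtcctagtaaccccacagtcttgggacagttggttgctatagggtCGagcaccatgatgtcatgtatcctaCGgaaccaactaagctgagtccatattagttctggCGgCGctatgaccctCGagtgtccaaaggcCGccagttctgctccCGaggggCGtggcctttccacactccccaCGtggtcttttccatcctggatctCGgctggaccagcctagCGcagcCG

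The *Esx1* promoter (chrX:137120277-137120576, minus strand) holds 24 CG dinucleotides, many of them in a run just upstream of the RefSeq start. GENCODE places the upstream end of *Esx1* at 137122083, so this window lies inside the GENCODE gene. The *Meis1* promoter (chr11:19018920-19019219, minus strand) holds 15, spread over its length. Of 2 *Sfmbt2* starts in the table, the one that coincides with a start of a GENCODE transcript is shown (chr2:10372186-10372485, plus strand), with 16. The *Pgpep1l* promoter (chr7:68264184-68264483, minus strand) also holds 16. Over the first listed promoter of 27025 genes the median was 7 (quartiles 3 and 21) and 94.2% held at least 1, so all of these windows lie above the median. The share of promoters with no more CG dinucleotides was 81.6% for *Esx1*, 66.5% for *Meis1* and 68.1% for both *Sfmbt2* and *Pgpep1l*. The window of the lower gene *Pgpep1l* thus held no fewer than those of *Meis1* and *Sfmbt2*. The motif searched was CG, which reads the same on both strands.

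Other genes among the 20 highest act in differentiated cells or in their specification. *Gata4*, a factor of primitive endoderm and heart, went from 1.42 to 4.54 TPM, a ratio of 3.19 (2.51 to 4.11). *Slc15a1*, the intestinal peptide transporter, had the same ratio of 3.19, from 1.45 to 4.64 TPM. *Grin1*, an NMDA receptor subunit, went from 1.53 to 4.59 TPM, a ratio of 2.99 (2.43 to 3.70). These genes stood at a few TPM even with EED226, far below the pluripotency genes.

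Several of the 20 were already expressed at over 5 TPM with DMSO, and their intervals are narrow. *Cdkn2a*, the gene of the cell cycle inhibitors p16INK4a and ARF and a classic Polycomb target, was at 11.3 TPM in the DMSO and 32.6 TPM in the EED226 library, a ratio of 2.88 (2.48 to 3.35). *Lefty2*, a secreted antagonist of Nodal, was at 65.0 and 148 TPM, a ratio of 2.27 (2.18 to 2.37). *N4bp2* (17.5 and 37.1 TPM), *Dnajc6*, which encodes the clathrin uncoating factor auxilin (8.08 and 16.9 TPM), and *Amot*, whose product angiomotin binds YAP (7.72 and 16.9 TPM), were each just over 2-fold higher. With the length trend removed the smallest ratio among the 20 was 1.85, for *Zfp516*. The 20 were chosen for high values of this same ratio, so that is no separate support for them.

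**Figure D3:**
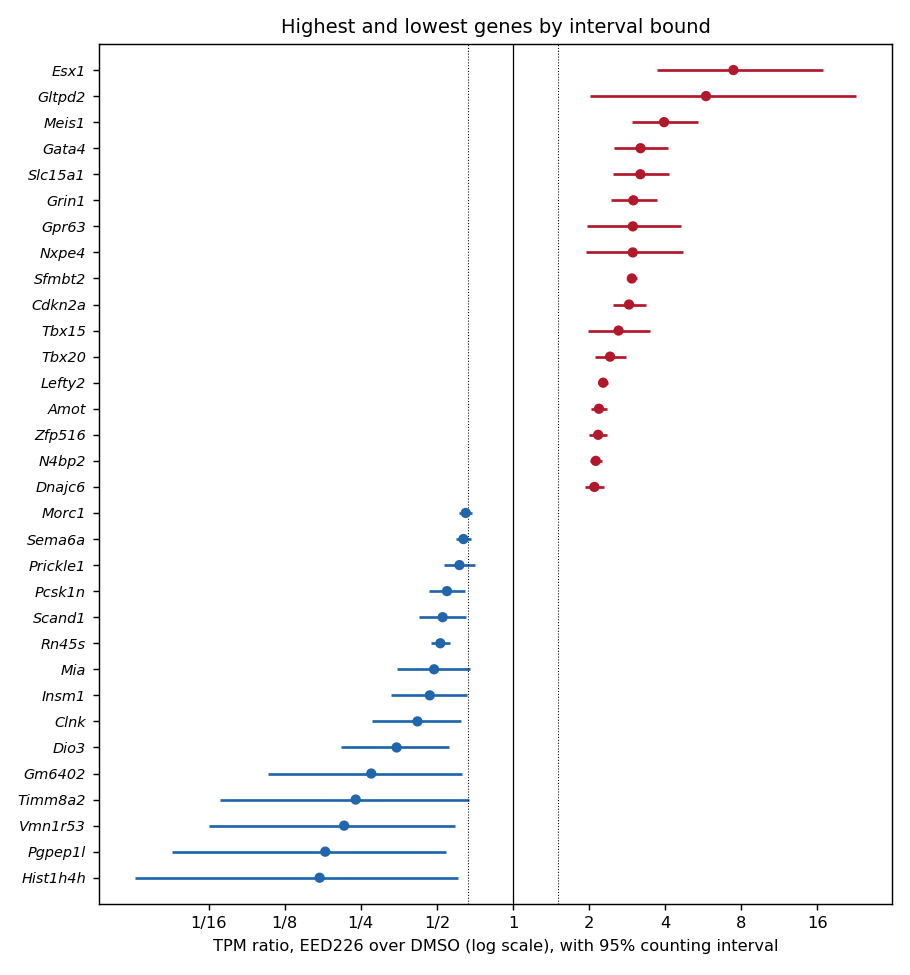
TPM ratio of EED226 over DMSO (horizontal axis, log scale) for 17 of the 20 highest genes by the lower bound and the 15 lowest by the upper bound of the interval. Points are ratios, lines are 95% counting intervals, and dotted lines mark 1.5-fold, with *Esx1* highest at 7.45 and the well-counted genes *Sfmbt2* and *Lefty2* having narrow intervals.

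Homeobox genes outside the Hox clusters were often higher. Of 100 genes in the paired, LIM, NK and related homeobox families, 33 were measured, 12 of these were higher (36.4%) and 1 was lower, with a median log2 ratio of 0.40 against 0.083 over all measured genes. Most of these genes are weak, and among all genes at 1 to 3 TPM the share of higher genes was 14.7%. *Isl2*, a LIM factor of motor neurons, went from 0.245 to 1.00 TPM, a ratio of 4.08 (1.88 to 10.1). *Tlx3*, a selector of excitatory sensory neurons, was at 0.704 and 1.78 TPM, and *Dlx3*, a factor of placenta and hair follicle, at 0.436 and 1.07 TPM. *Msx1*, a factor of neural crest and limb, was the lower member, at 3.59 and 2.32 TPM (ratio 0.648, 0.489 to 0.856). For 7 of the 12 higher members the DMSO level was under 1 TPM, so they were measured only because they were higher, and of 26 members at 1 TPM or more with DMSO 5 were higher. With a mean of at least 1 TPM required instead, 10 of the 12 calls were left, and with 1 TPM added in place of 0.1 there were 6.

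T-box and GATA factors showed the same direction in small families. Of 7 measured T-box genes 4 were higher, with a median log2 ratio of 0.59, and most members are at levels where 14.7% (1 to 3 TPM) or 8.22% (3 to 10 TPM) of all genes were higher. *Tbx4* (0.645 TPM with DMSO) and *Gata3* (0.477 TPM) were measured only through EED226, and without them 3 of 6 T-box and 2 of 3 GATA genes were higher. *Tbx20*, needed for heart development, was at 2.21 and 5.34 TPM (ratio 2.42, 2.10 to 2.79), and *Tbx15*, a skeletal and skin patterning factor, at 1.10 and 2.87 TPM. *T*, which encodes brachyury, was at 5.55 and 4.70 TPM (0.692 to 1.04 for the ratio). Of 4 measured GATA genes *Gata2*, *Gata3* and *Gata4* were higher, and *Gata1* was at 1.79 and 1.80 TPM. Removing the length trend left 3 of the 4 T-box and 2 of the 3 GATA calls, since *Tbx3* and *Gata2* lay just over the limit.

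Other factor families had few or no calls. Among 12 measured SOX genes 3 were higher (25%), namely *Sox7*, *Sox8* and *Sox21*, and the median log2 ratio was -0.021. Over all measured genes 5.22% were higher. *Sox7* and *Sox8* were measured only through EED226, and of 10 SOX genes at 1 TPM or more with DMSO 1 was higher. *Sox7*, an endoderm and endothelial factor, went from 0.469 to 1.20 TPM. None of 21 measured forkhead genes was higher or lower, with ratios between 0.714 for *Foxd3* and 1.40 for *Foxr1*. Of 39 Hox cluster genes 3 reached 1 TPM in either library and none of these was called, with *Hoxc13* at 1.10 and 1.36 TPM and *Hoxd13* at 1.78 and 1.45 TPM. The other 36 Hox genes, among the best known Polycomb targets, thus stayed under 1 TPM in both libraries.

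Some regulators of lineages that ESCs have not entered were among the higher genes. Of 16 measured trophoblast regulators 6 were higher and 0 were lower, and the median log2 ratio was 0.48. For 3 of the 6, *Esx1*, *Hand1* and *Gata3*, the DMSO level was under 1 TPM, so they were measured only through EED226, and of the 13 at 1 TPM or more with DMSO 3 were higher. Over all measured genes 5.22% were higher, and at 1 to 3 TPM 14.7%. Besides *Esx1* these were *Hand1*, needed for giant cells and heart (0.479 and 1.39 TPM), *Gata3* (0.477 and 1.03 TPM), *Gata2* (1.66 and 2.62 TPM), *Rhox6* (7.42 and 14.6 TPM) and *Tfap2c* (26.6 and 43.3 TPM). *Cdx2*, the trophectoderm factor, was under 1 TPM in both libraries, at 0.662 and 0.796 TPM. The summed level of the list was 160 TPM in the DMSO and 224 TPM in the EED226 library.

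Of 13 measured regulators of the primitive streak and mesoderm 5 were higher, namely *Hand1*, *Meis1*, *Meis2*, *Nkx2-5* and *Twist1*. Over all measured genes 5.22% were higher, and at 1 to 3 TPM 14.7%. *Nkx2-5*, the early heart factor, went from 0.671 to 1.38 TPM (ratio 2.05, 1.16 to 3.78). Of the 5, all but *Twist1* were under 1 TPM with DMSO and were measured only through EED226, which leaves 1 higher gene of 9 at 1 TPM or more with DMSO. Early streak genes were not among them, as *Eomes* was at 4.26 and 5.45 TPM and *Mesp2* at 1.53 and 1.29 TPM. In the primitive endoderm list of 11 measured genes *Gata4* and *Sox7* were higher, while *Gata6* and *Sox17* stayed under 0.2 TPM in both libraries and *Dab2*, an endoderm adaptor protein gene, was at 3.29 and 3.65 TPM. The endoderm receptor gene *Pdgfra*, also under the limit of 1 TPM, was at 0.143 and 0.355 TPM (17 and 49 reads). *Sox7* was measured only through EED226, and of 10 primitive endoderm genes at 1 TPM or more with DMSO 1 was higher.

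Among 12 measured neural regulators 2 were higher and 2 lower, where 5.22% of all measured genes were higher and 1.03% lower. *Sox21* was at 2.71 and 4.57 TPM and *Msx2* at 1.26 and 2.03 TPM, whereas *Msx1* and *Neurog3*, a proneural and endocrine factor, were lower. *Neurog3* was at 1.14 and 0.634 TPM, with an interval of the ratio from 0.299 to 1.00. Of 19 measured neuronal genes 3 were higher, *Grin1*, *Sncg* (2.33 and 4.67 TPM) and the RNA-binding protein gene *Elavl4* (0.873 and 1.74 TPM). *Elavl4* was measured only through EED226, and of 18 neuronal genes at 1 TPM or more with DMSO 2 were higher. Of 24 measured germline genes *Smc1b*, a meiotic cohesin subunit, and *Piwil2*, a piRNA-binding Argonaute protein gene, were higher, and *Tex101* was lower. The share of higher germline genes, 8.33%, is near the 5.22% of all measured genes. *Smc1b* was measured only through EED226, and of 23 germline genes at 1 TPM or more with DMSO 1 was higher. The *Piwil2* ratio became 1.37 with the length trend removed, and the *Tex101* interval of 0.294 to 1.25 included 1. Of the genes listed as markers of the 2-cell-like state only *Arg2* was measured, at 1.24 and 0.861 TPM, and *Zscan4c* stood at 0.249 and 0.300 TPM.

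**Figure D4:**
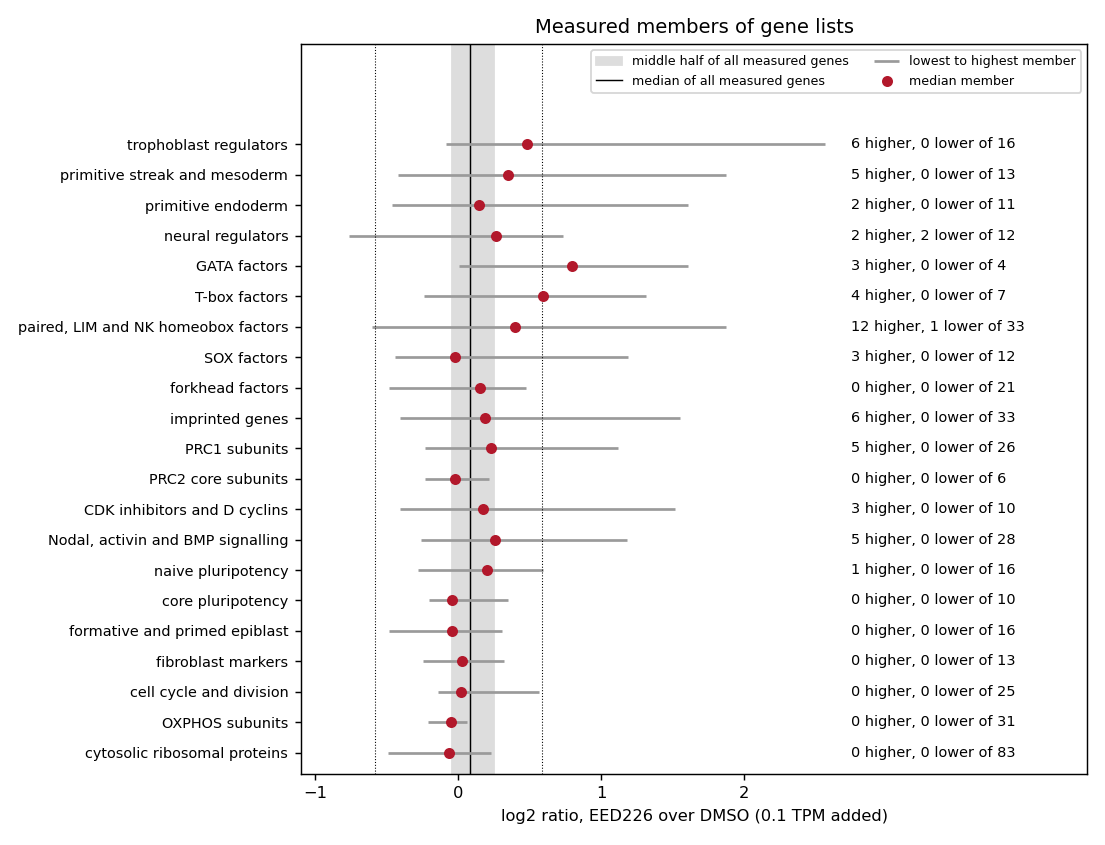
Log2 ratio of EED226 over DMSO (horizontal axis, 0.1 TPM added) for the measured members of 21 gene lists. Grey lines run from the lowest to the highest member, and red points are medians. The grey band and black line are the interquartile range and median of all measured genes, and dotted lines mark 1.5-fold. The counts at the right show, for example, 6 of 16 trophoblast regulators and 12 of 33 homeobox genes higher, against 5.22% of all measured genes. Of members at 1 TPM or more with DMSO, 3 of 13 and 5 of 26 were higher.

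Imprinted genes, which are expressed from 1 parental allele, included several of the higher genes. Of 33 measured, 6 were higher (18.2%) and 0 were lower, against 5.22% of all measured genes, and the median log2 ratio was 0.19. After *Sfmbt2*, the growth-restricting long noncoding RNA gene *H19* was at 17.1 TPM in the DMSO and 35.4 TPM in the EED226 library, a ratio of 2.07 (1.90 to 2.27). Its neighbour *Igf2*, the fetal growth factor, was at 3.66 and 7.09 TPM, although 62.8% of its exonic bases are shared with the same-strand entry *Gm49394*. *Plagl1*, a zinc finger gene expressed from the paternal allele, was at 3.90 and 7.08 TPM, *Zdbf2* at 35.4 and 61.1 TPM and *Zim1* at 0.665 and 1.24 TPM. *Zdbf2* had a ratio of 1.37 with the length trend removed, and the other 5 stayed over 1.5. *Zim1* was measured only through EED226, and of 32 imprinted genes at 1 TPM or more with DMSO 5 were higher.

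Not every gene known for H3K27me3-dependent imprinting was higher. *Jade1*, *Gab1*, *Smoc1* and *Slc38a4*, which with *Sfmbt2* carry such imprints in mouse embryos or extraembryonic tissue and were named after their values were seen, had ratios of 1.23, 1.09, 1.17 and 1.21. *Cdkn1c*, a maternally expressed cell cycle inhibitor, was at 34.2 and 25.8 TPM, a ratio of 0.753. The reads were not split by parental allele, so the values do not show which allele they came from.

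The subunits of PRC2 itself changed little. None of the 6 core genes reached 1.5-fold, and their ratios ran from 0.852 for *Eed* to 1.16 for *Suz12*, the scaffold subunit, with *Ezh2*, the main methyltransferase, at 155 and 175 TPM. Among 7 accessory subunits *Phf19*, a Polycomb-like protein of PRC2.1, was higher, at 10.5 and 16.7 TPM (ratio 1.59, 1.45 to 1.74). The share of higher genes over all measured genes was 5.22%. *Jarid2* and *Mtf2*, which define the 2 main forms of PRC2, had ratios of 1.05 and 1.11. With the length trend removed *Phf19* was at 1.49, just under the limit.

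Of 26 measured PRC1 genes 5 were higher (19.2%) and none was lower, against 5.22% of all measured genes, 14.7% at 1 to 3 TPM and 8.22% at 3 to 10 TPM. *Bmi1* (*Pcgf4*), a subunit of canonical PRC1 and a repressor of *Cdkn2a*, went from 4.22 to 9.03 TPM, a ratio of 2.14 (1.85 to 2.48). *Cbx8*, a reader of H3K27me3, was at 1.22 and 2.77 TPM, *Bcorl1*, of variant PRC1.1, at 2.47 and 4.75 TPM, *Scmh1* at 10.2 and 16.8 TPM and *Pcgf5* at 11.7 and 18.2 TPM. The abundant ESC subunits *Pcgf6* and *Pcgf2* had ratios of 0.933 and 0.887. All 5 calls were kept with the length trend removed and 4 after centring.

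Of 8 DNA methylation enzymes 1 was higher and none was lower, against 5.22% and 1.03% of all measured genes. *Tet1*, the main oxidase of methylated cytosine in ESCs, was at 102 TPM in the DMSO and 159 TPM in the EED226 library, a ratio of 1.55 (1.53 to 1.58). *Tet1* is 14082 bases long, and with the length trend removed its ratio was 1.24 and the call was lost. *Dnmt3b*, a de novo DNA methyltransferase, was at 472 and 366 TPM, a ratio of 0.776 (0.765 to 0.788), and its cofactor *Dnmt3l* at 272 and 237 TPM. *Dnmt1*, which copies methylation at replication, had a ratio of 1.02. Among 14 H3K27 demethylases and H3K4 methyltransferases only *Kmt2c* was higher, at 11.1 and 18.7 TPM, and its ratio of 1.69 became 1.34 with the length trend removed. The demethylase gene *Kdm6b* was at 19.4 and 17.9 TPM.

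In the Nodal, activin and BMP pathways the ligands and antagonists held the changes. Of 28 measured genes 5 were higher (17.9%) and none was lower, against 5.22% and 1.03% of all measured genes. Of 26 genes of this list at 1 TPM or more with DMSO 4 were higher. *Lefty1*, the second Nodal antagonist, was at 93.1 and 152 TPM, a ratio of 1.63 (1.55 to 1.71). *Lefty1* and *Lefty2* are neighbouring paralogs on chromosome 1 (180935022 to 180938400 and 180893108 to 180899103), and reads that fit both could be split between them. The ligand genes *Bmp7* (0.882 and 1.65 TPM) and *Tgfb1* (9.33 and 14.9 TPM) were among the others. *Nodal* itself was at 56.2 and 59.8 TPM, and *Id1*, a direct BMP target, was at 314 and 262 TPM.

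In other signalling pathways single genes stood out. *Fgf10*, a ligand of lung and limb buds, went from 0.646 to 1.57 TPM and *Fgfr3* from 0.555 to 1.04 TPM, whereas none of 19 FGF and ERK target genes was called. *Fgf10* and *Fgfr3* were measured only through EED226, and none of 13 FGF ligand and receptor genes at 1 TPM or more with DMSO was higher. *Notch4* was at 3.62 and 7.33 TPM, a ratio of 2.02 (1.80 to 2.27), and *Hhip*, a hedgehog antagonist, at 2.16 and 3.51 TPM. With the length trend removed the *Hhip* ratio of 1.62 became 1.34 and lost its call. The Notch ligand gene *Dll1* was at 3.11 and 2.23 TPM. Of 20 measured WNT genes *Wnt4* was higher, at 1.07 and 1.67 TPM (1.45 with the length trend removed), and *Sp5*, a direct WNT target, was lower, at 5.36 and 3.37 TPM (ratio 0.629, 0.504 to 0.783). Among all measured genes 5.22% were higher and 1.03% lower. *Rbp4*, the retinol carrier, went from 0.306 to 1.09 TPM on 7 and 29 reads. It was measured only through EED226, and none of 9 retinoic acid pathway genes at 1 TPM or more with DMSO was higher. *Kit*, the stem cell factor receptor, was at 11.2 and 19.9 TPM and its ligand gene *Kitl* at 2.32 and 4.05 TPM, and *Slit2*, an axon guidance cue, at 1.17 and 2.19 TPM.

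Cell cycle inhibitors responded singly. Of 10 CDK inhibitor and D cyclin genes 3 were higher, against 5.22% of all measured genes. After *Cdkn2a* these were *Cdkn2c* (p18INK4c), at 0.529 and 1.26 TPM, and *Ccnd2*, at 13.6 and 24.5 TPM, a ratio of 1.80 (1.69 to 1.92). *Cdkn2c* was measured only through EED226, and of 9 genes of this list at 1 TPM or more with DMSO 2 were higher. *Cdkn2b*, which lies next to *Cdkn2a*, was at 4.32 and 5.71 TPM, with an interval of 1.03 to 1.70. *Cdkn1a*, a p53 target, was at 35.6 and 39.2 TPM, and none of 22 measured p53 targets was called. None of 25 cell cycle and division genes was called either, the highest being *Mki67* at 77.5 and 115 TPM with a ratio of 1.48, which became 1.20 with the length trend removed.

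Pluripotency genes were near their DMSO levels. Of 16 naive pluripotency genes only *Tbx3* was higher, at 5.72 and 8.65 TPM, a ratio of 1.51 that became 1.35 with the length trend removed. Among all measured genes 5.22% were higher and 1.03% lower. *Nanog* was at 236 and 264 TPM, *Klf4* at 44.5 and 60.7 TPM and *Klf2* at 273 and 224 TPM. None of 10 core and none of 16 formative and primed genes was called, with medians of -0.044 and -0.046 on the log2 scale. *Otx2*, a formative factor, was at 90.8 and 87.1 TPM, *Fgf5* at 9.91 and 10.4 TPM and *Foxd3* at 38.6 and 27.6 TPM. The formative genes thus did not pass 1.5-fold upward.

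Lists of general cell function held few calls or none. None of 83 cytosolic ribosomal protein genes, 31 oxidative phosphorylation subunits, 21 glycolysis genes, 18 unfolded protein response genes, 10 heat shock genes, 16 immediate early genes and 24 contractile targets of SRF and YAP was called. The medians of the ribosomal and oxidative phosphorylation lists were -0.061 and -0.052 on the log2 scale. Of all genes at a mean of 100 TPM or more, 4 of 1956 were higher and none was lower. Of 30 genes of cholesterol synthesis and sterol feedback *Scd1* and *Abca1* were higher (6.67%, against 5.22% of all measured genes), and both calls were lost with the length trend removed. Of 19 interferon response genes *Psmb9*, an immunoproteasome subunit, was higher, at 5.28 and 8.41 TPM. Among 190 measured solute carrier genes 15 were higher (7.89%) and 2 were lower, a share near the 5.22% of all measured genes.

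Adhesion and surface genes were also near that share or above it on small numbers. Of 36 collagen, laminin and integrin genes 3 were higher, including *Itga1* (0.740 and 1.51 TPM) and *Itgb3* (0.924 and 1.76 TPM). Both were measured only through EED226, and of 34 such genes at 1 TPM or more with DMSO 1 was higher. Of 26 epithelial junction and keratin genes 3 were higher, *Dsp*, *Esrp2* and *Cldn3*, where 5.22% of all measured genes were higher. All 26 had a ratio above 1, and the median log2 ratio of all measured genes was 0.083. A ratio above 1 was also held by 18 of 18 unfolded protein response genes and by 6 of 31 oxidative phosphorylation subunits. The *Dsp* ratio of 1.66 became 1.36 with the length trend removed, and that call was lost. *Esrp2*, a regulator of epithelial splicing, was at 18.5 and 29.3 TPM, a ratio of 1.58 (1.46 to 1.72). None of 9 haematopoietic and endothelial markers other than *Esam* (3.77 and 6.71 TPM) and *Tal1* (1.66 and 2.77 TPM) was called.

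The lower genes were fewer and shorter than the higher genes. Their median level was 1.98 TPM in the DMSO and 0.888 TPM in the EED226 library, and their median length was 777 bases against 2879 bases for the higher and 2819 bases for all measured genes. *Pgpep1l*, the gene with the smallest upper bound, was at 1.13 TPM with DMSO (19 reads) and 0.204 TPM with EED226 (4 reads), a ratio of 0.181 (0.0448 to 0.544). *Dio3*, an imprinted gene outside the list of 33 whose enzyme inactivates thyroid hormone, was at 1.88 and 0.653 TPM (ratio 0.346, 0.209 to 0.559). *Insm1*, a zinc finger factor of neuroendocrine cells, was at 1.86 and 0.872 TPM, and *Pcsk1n*, which encodes an inhibitor of a prohormone convertase, at 9.58 and 5.25 TPM. Replication-dependent histone genes were called on few reads in both directions, 3 higher and 4 lower of 19, for example *Hist1h4h* at 15 and 3 reads. Among all measured genes 5.22% were higher and 1.03% lower. Transcripts of these histone genes lack the poly(A) tail that the library selects.

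Better counted lower genes included *Morc1*, which silences transposons in male germ cells, at 52.2 TPM in the DMSO and 33.9 TPM in the EED226 library, a ratio of 0.650 (0.614 to 0.688). *Sema6a*, a transmembrane guidance molecule, was at 17.6 and 11.2 TPM, a ratio of 0.637 (0.596 to 0.680), and *Prickle1*, of the planar cell polarity pathway, at 6.87 and 4.22 TPM. These 3 genes were lower by less than 2-fold. *Scand1* was at 16.8 and 8.86 TPM, but 40.4% of its exonic bases lie opposite *Cnbd2*, and *Mia* shares 41.2% with a same-strand gene. The ribosomal RNA precursor entry *Rn45s* was at 13.8 and 7.13 TPM, a measure of ribosomal RNA left after poly(A) selection, whose part in other ratios was not tested.

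Among abundant genes (mean level 100 TPM or more) none was lower by 1.5-fold. The smallest ratios were those of *Apoe*, the lipid carrier, at 490.4 and 355 TPM (0.725, 0.707 to 0.743), and of the kinase gene *Pim2*, at 191 and 139 TPM (0.727, 0.702 to 0.753). At the other end were *Lefty2*, *Lefty1*, the small nucleolar RNA *Snord2* inside a host gene, and *Tet1*, the 4 abundant genes over 1.5-fold. *S100a10*, *Sfn* and *Ucp2* followed with ratios of 1.44, 1.43 and 1.41.

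The higher genes were also often higher in EpiLCs than in ESCs. Of the 658, 317 (48.2%) were 2-fold or more above the ESC library in EpiLCs and 116 (17.6%) were 2-fold or more below it, against 26.2% and 10.8% of all 12607 genes, and 29.1% and 11.6% of the 13371 genes measured in that comparison. Of the 130 lower genes 31 (23.8%) were higher and 42 (32.3%) lower in EpiLCs. Among the 145 genes 2-fold higher with EED226 the shares were 31.7% and 28.3%. The shares were not matched for level. In the ESC library the median was 1.79 TPM for the 658 higher genes and 17.0 TPM for all 12607 genes. What part level had in the shares was not tested. Ratios go up with gene length in both comparisons: in 5 equal length groups the median log2 ratio of EpiLCs over ESCs ran from -0.087 in the shortest to 0.86 in the longest. The higher genes had a median length of 2879 bases against 2819 bases over all measured genes. For the 590 higher entries of 200 bases or more the median length was 3215.5 bases, and 50.7% of them were higher in EpiLCs. For the 140 genes with the interval wholly above 1.5 it was 4639 bases, and 50% were higher in EpiLCs. The part of length in these shares was not tested. The 2 comparisons share no library, but the ESC library came, by the methods, from medium with the inhibitors PD0325901 and CHIR99021 besides LIF, which the treated cultures did not receive.

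For the 20 highest genes the levels in the ESC and EpiLC libraries did not follow a single order. The level with EED226 was above that in EpiLCs for 15 of the 20, the ESC library was above DMSO for 11, and EpiLCs were above ESCs for 11. The *Tbx20* level was 1.36 TPM (ESC) and 0.0190 TPM (EpiLC), so its 5.34 TPM with EED226 was the highest of the 4 libraries. *Sfmbt2* was at 5.31 TPM (ESC) and 11.7 TPM (EpiLC), both below its EED226 level. *Esx1*, by contrast, was at 2.05 and 7.29 TPM, and *Cdkn2a* at 39.2 and 43.7 TPM, so for *Cdkn2a* the DMSO library held the lowest level of the 4.

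**Figure D5:**
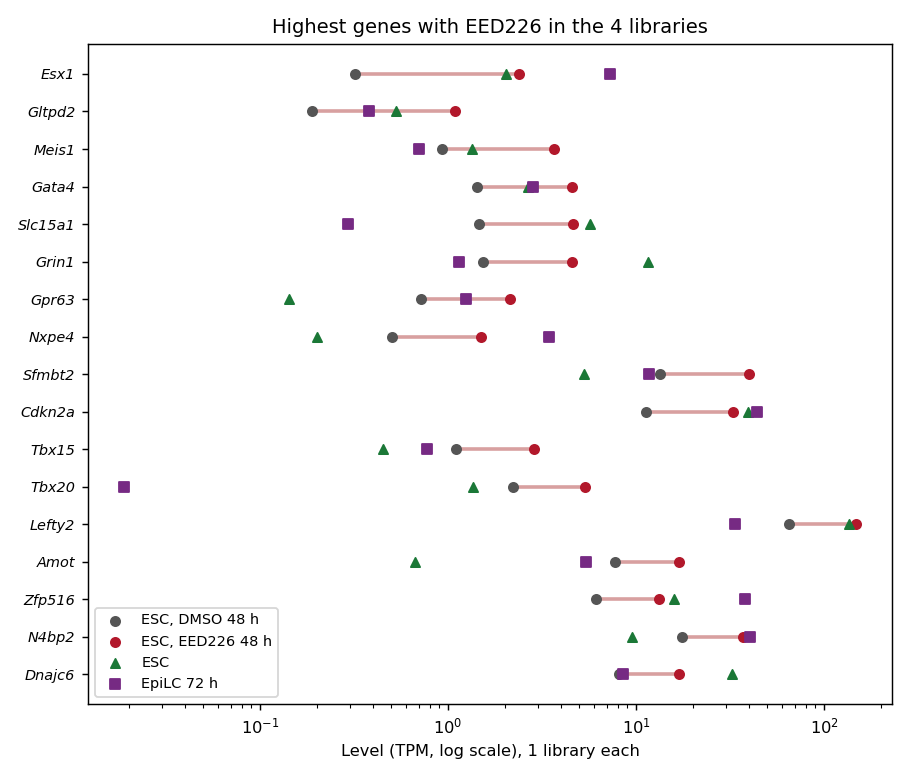
Levels of 17 of the 20 highest genes with EED226 (horizontal axis, TPM, log scale) in the 4 libraries, 1 library each: DMSO (grey circles), EED226 (red circles, joined to DMSO by a bar), ESC (green triangles) and EpiLC (purple squares). The red circle lies right of the purple square for 12 of the 17 genes, and *Tbx20* has the widest gap, at 5.34 and 0.0190 TPM.

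The higher genes were spread over the genome with some neighbouring runs. Their share per chromosome ran from 3.38% on chromosome 5 to 7.46% on chromosome 4 and was 6.96% on the X chromosome, leaving out the Y chromosome with 4 measured genes. Of 585 higher genes with a position, 102 (17.4%) had a higher gene next to them along the chromosome, against 1136 of 12299 (9.24%) of all measured genes with a position. Only measured genes were ordered, so unmeasured genes can lie between neighbours. Some neighbours overlap, as *Nphs1* and *Nphs1os* do, and may share reads. The longest runs held 4 genes. On the X chromosome *Fam199x*, *Esx1*, *Nrk* and *Mum1l1* followed each other among measured genes, with starts from 137049594 to 139210042 of GRCm38. *Esx1* ends at 137122083 and *Nrk* starts at 138914430, so these 2 are far apart. *Nrk*, a kinase gene of the placenta, was at 1.53 and 3.34 TPM. On chromosome 6 *Atp6v0a4*, *D630045J12Rik*, *Zc3hav1l* and *Zc3hav1* did, with starts from 38048483 to 38305286, though *Atp6v0a4* and *Zc3hav1l* were under 1.5-fold with the length trend removed, and *Zc3hav1*, which encodes the antiviral protein ZAP, was at 4.65 and 9.70 TPM.

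CpG content near transcript starts differed more for the lower than for the higher genes. In the first 300 bases of the longest GENCODE transcript, higher genes had a median of 20 CG dinucleotides (quartiles 12 and 30), lower genes 10 (6 and 24) and all measured genes of at least 300 bases 21 (13 and 30). CpG content goes with level, and among genes at 3 to 10 TPM the medians were 23 for 176 higher, 10 for 13 lower and 19 for all 2339 genes with a sequence. Under 3 TPM they were 18, 9.5 and 16. At a like level the higher genes thus had slightly more CG dinucleotides than all genes, and the lower genes fewer. This is a description of these libraries without a test.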

How the data were processed

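RNA of mouse R1 ESCs treated for 48 h with 10 µM EED226 or DMSO was sequenced by the authors as 100 bp single reads from a stranded mRNA kit, 1 library per condition. STAR 2.6.0a, Bowtie2 2.2.4, featureCounts 1.6.2 and bcl2fastq 2.20 are named in the submitters' processing notes, with the build mm10. Annotation and strand setting are not given in the sources used here. Overlapping genes may share reads. The authors deposited 1 table with counts of reads per gene, a signal of reads divided by gene length, and TPM per library. TPM were used as deposited, and the deposited counts gave exact (Clopper-Pearson) 95% intervals of each ratio. A floor of 3 reads applies where a library has none, and no fold is printed for such genes. Reads are not independent molecules, so intervals cover counting error only.

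Genes at 1 TPM or more in either library were kept, and 2 entries sharing 1 symbol were left out. The 214 glycosylation genes (202 matched exactly, 6 by case, 6 by synonym) were set aside. The comparison, its 43 gene lists, 32 symbol families and all rules were chosen with earlier results of these data known. Named genes were the 20 highest by lower and 15 lowest by upper interval bound, the 8 highest and 8 lowest at a mean of at least 100 TPM, 10 each that crossed from under 0.5 to at least 1 TPM in either direction, and up to 4 highest and lowest of each list or lists of 12 or fewer whole. Genes named outside this rule, such as *Zdbf2*, *Plagl1*, *Nrk*, *Zc3hav1*, *Kitl*, *Tgfb1*, *Pcgf5*, *Jade1*, *Gab1*, *Smoc1*, *Slc38a4*, *Nanog*, *Klf4*, *Mki67*, *Gata6*, *Sox17*, *Dab2*, *Zscan4c*, *Cdx2*, *Dcn*, *Lum* and *Fgf5*, were chosen after their values were seen. Positions and overlaps come from GENCODE M21 (GRCm38), promoters from RefSeq (GRCm38.p6). The length trend was a running median over 501 genes. Calculations were tested on simulated data and ran in Python 3.11.15 with scipy 1.17.1, pandas 2.3.3, numpy 2.4.6 and, for plots, matplotlib 3.10.9. Some genes that meet the naming rule are not reported here.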

Additional observations from a re-analysis of the deposited data

How the results depend on the processing

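The numbers of higher and lower genes, 658 and 130, depended on the size and the filter. They were 145 and 48 at 2-fold, 26 and 22 at 4-fold, 310 and 65 with 1 TPM added, 1632 and 690 without a filter, 257 and 29 at 5 TPM or more in either library, and 140 and 10 with the interval wholly beyond 1.5-fold. Requiring the interval to exclude 1 left 562 and 66. With a mean of at least 1 TPM they were 556 and 90, once centred 446 and 182, and without the length trend 459 and 145, and without entries under 200 bases, an alternative chosen after seeing the data, 590 and 88. Of 152 named genes past 1.5-fold, 117 stayed past it in the same direction with the length trend removed and 119 after centring. CpG content of RefSeq promoters, planned as a comparison, is not given because only 66.3% of higher and 50% of lower genes had a promoter in the table. Transcript starts, with sequence for 99.3% and 95.5%, were used instead, a choice made after seeing the data. No paired analysis was possible because each condition had 1 library, and for the same reason no library could be left out. Depth limits the weak genes most: the interval of the ratio included 1 for 96 higher and 64 lower genes.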
